A study of Mus musculus with 6 samples.

Results

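Left ventricles of 2 *Kdm3a*-Tg mice and 2 WT mice, all after transverse aortic constriction (TAC), were compared on Illumina bead arrays. These were the 4 of 6 arrays in the series whose labels gave TAC surgery, and the 2 arrays of sham-operated mice were left out of every difference. All mice were male on a c57/BL6 background, were operated on at 6 to 8 weeks of age and were sampled 3 weeks later per the labels, although the study's text gives a longer interval for its Tg mice. WT TAC mice carried no transgene by their label. Tg TAC mice carried a Flag-tagged mouse *Kdm3a* cDNA under the αMHC promoter, which is active in heart muscle cells, and the labels do not say which transgenic line was used. Each array held RNA from 1 animal with its own number, and the replicate numbers 1 and 2 were given in the labels for both genotypes. The question was which genes differ with *Kdm3a* overexpression in the pressure-loaded ventricle, taken across all measured genes and not only the matrix and hypertrophy genes.

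KDM3A is a histone demethylase that removes methyl groups from lysine 9 of histone H3, a mark found at silent genes, and thereby allows transcription. TAC narrows the aorta so that the left ventricle pumps against a higher pressure, and the ventricle answers over weeks with thicker muscle, fibrosis and a return of fetal genes. In adult heart muscle the main energy source is the oxidation of fatty acids in mitochondria, while endothelial cells, pericytes, fibroblasts and macrophages make up most of the other cells.

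Values are normalized log2 intensities, always given for WT TAC replicates 1 and 2 and then for Tg TAC replicates 1 and 2. Differences are Tg TAC minus WT TAC on the log2 scale, each with its standard error (SE) and n = 2 per group. A same-numbered difference sets Tg TAC replicate 1 against WT TAC replicate 1, or replicate 2 against replicate 2, and is given without a test. A probe was taken as detected where its deposited detection p-value was below 0.01, and 15643 to 16492 of 45281 probes were detected per array. The 4 TAC arrays correlated with each other at Pearson's r of 0.962 to 0.980 over genes, and each array correlated best with the same-numbered array of the other genotype (0.980 for replicate 1 and 0.977 for replicate 2).

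*Kdm3a* was read by 4 probes, and 1 of them went against a label. On ILMN_3118169 the values were 14.70 and 7.19 in WT TAC and 15.10 and 15.06 in Tg TAC. The library labelled WT TAC replicate 1 therefore lay with both Tg TAC libraries, whereas WT TAC replicate 2 lay near WT Sham (7.83). The library labelled Tg Sham was low as well (7.48). Whether either library carries a wrong label was not tested. ILMN_3043245 read 7.41, 7.32, 7.20 and 7.39, with overlapping groups. ILMN_2707895 read 9.04, 8.73, 8.63 and 8.42, so both Tg TAC values lay below both WT TAC values (-0.35). ILMN_2556191 was detected on no array. Which of the probes lie within the cDNA was not known here, and a probe outside it checks nothing. Groups follow the labels, and every direction below rests in part on the library labelled WT TAC replicate 1, so values without it are given for a number of genes and lists.

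**Figure D1:**
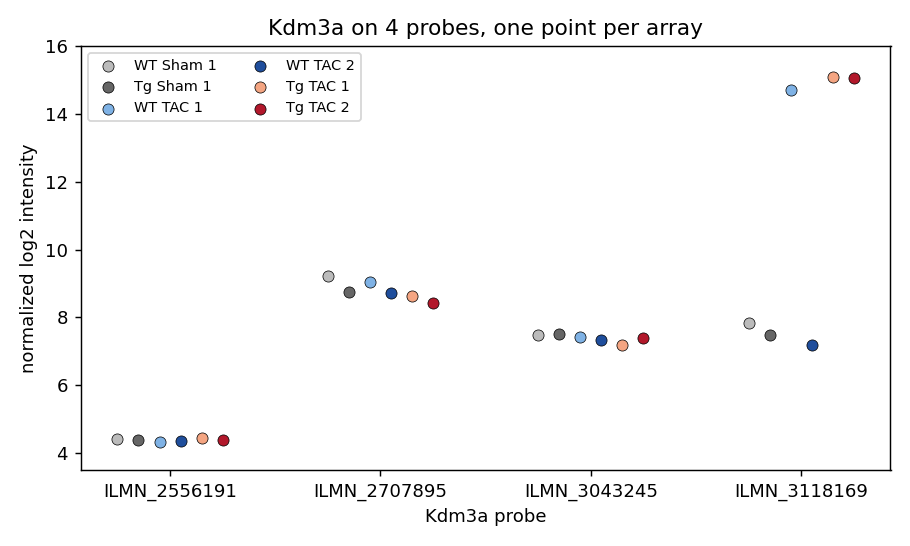
Normalized log2 intensity (y axis) of the 4 Kdm3a probes (x axis), with 1 point per array and all 6 arrays shown. On ILMN_3118169 the library labelled WT TAC replicate 1 lies at 14.70 beside the Tg TAC libraries at 15.10 and 15.06, and the other 3 libraries lie between 7.19 and 7.83.

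On that probe the *Kdm3a* difference was 4.14 ± 2.30 SE (n = 2 and 2), which limma did not call (adjusted p = 0.70). The same-numbered differences were 0.40 in replicate 1 and 7.88 in replicate 2. Without the library labelled WT TAC replicate 1 the *Kdm3a* difference was 7.89. That fit left 1 WT TAC array, and the library was singled out by its value on this same probe, so no test is given. The unnamed clone 3110040M04Rik was at 10.43, 6.75, 12.38 and 11.87, so its WT TAC values too were far apart, with replicate 1 nearer to Tg TAC.

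Of 9389 genes tested, limma called 0 (0%) between Tg TAC and WT TAC, and the smallest adjusted p was 0.66. At an unadjusted p below 0.05 there were 333 genes higher in Tg TAC and 363 lower, or 3.55% and 3.87% of the genes, where 469 in all would arise by chance. The fit had 2 residual degrees of freedom. Both Tg TAC values lay above both WT TAC values for 1969 genes (21%) and below them for 1752 (18.7%), and these shares are the background for every count of genes without overlap below. With median scaling in place of quantile normalization the difference of the median gene moved by -0.13 log2, from 0.01 to -0.12, and the split became 998 higher and 2557 lower.

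The same-numbered differences were similar in size in the 2 replicates. In replicate 1, 84 genes (0.895%) were more than 2-fold higher in Tg TAC and 143 (1.52%) more than 2-fold lower, and in replicate 2 the counts were 148 (1.58%) and 100 (1.07%). By the group means 70 genes (0.746%) were more than 2-fold higher and 62 (0.66%) more than 2-fold lower. Only 20 genes (0.213%) were more than 2-fold higher in both replicates and 22 (0.234%) more than 2-fold lower in both, while 1 gene (0.0107%) was higher and then lower by more than 2-fold and 2 (0.0213%) the reverse. The differences had one sign for 66.4% of genes. Across 9389 genes the 2 sets of differences, which share no array, correlated at Pearson's r = 0.40 and Spearman's rho = 0.43. Set crosswise, each Tg TAC library against the WT TAC library of the other number, the differences correlated at Pearson's r = -0.20. Genes are not independent replicates, and the arrays share the tissue and the platform.

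**Figure D2:**
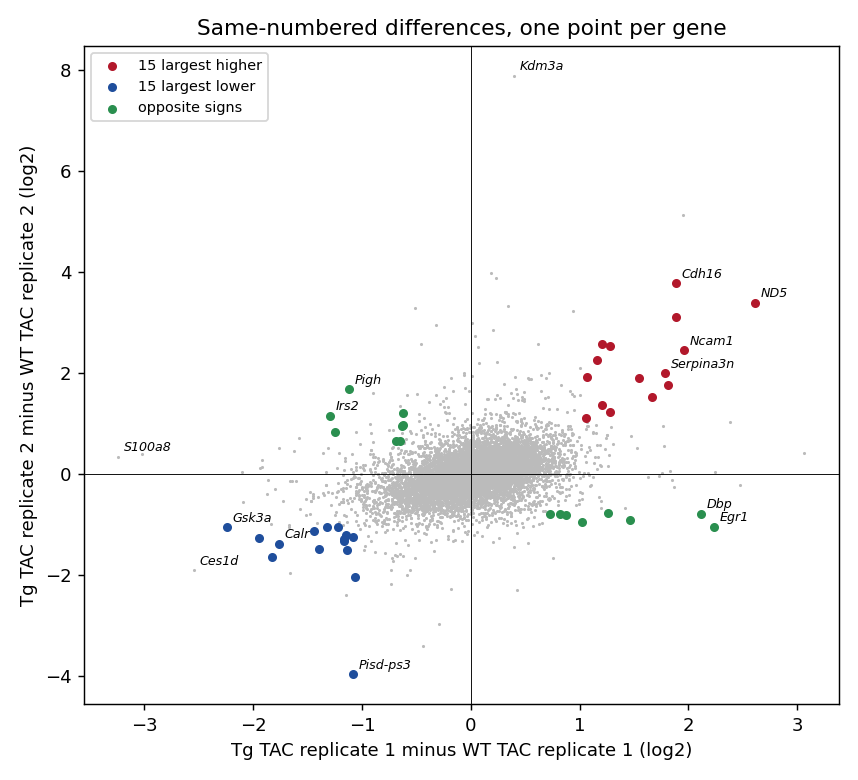
Same-numbered differences of 9389 genes in log2 units, with replicate 1 on the x axis and replicate 2 on the y axis and 1 point per gene. Red and blue points are the 15 genes with the largest higher and lower differences among genes whose groups do not overlap, green points are genes with opposite signs, and Kdm3a lies at 0.40 and 7.88.

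The genes described first were those without overlap that were detected on both arrays of the brighter group, ranked by the smaller of their same-numbered differences. The 15 highest began with *ND5* and ended with *Fryl*, whose smaller difference was 1.06, and the next gene, *Rhox5*, had 1.03. The 15 lowest ended with *Jag2* at -1.043, and the next was *Phospho1* at -1.036. None of these 30 genes passed the threshold (adjusted p of 0.66 to 0.68 by limma), and the choice used the differences themselves, so they are given as values. Of the 15 higher genes 5 were detected on all 4 arrays, 7 on 1 WT TAC array and 3 on none of them.

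**Figure D3:**
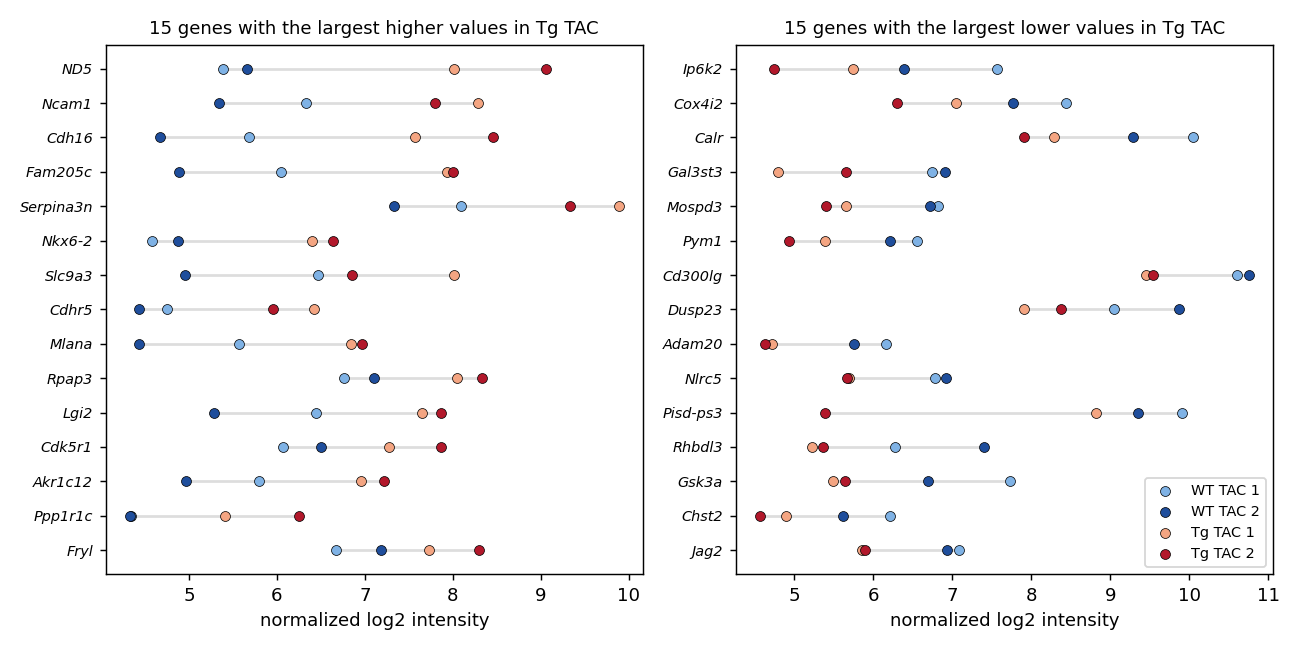
Normalized log2 intensity (x axis) of the 15 genes with the largest higher values in Tg TAC (left) and the 15 with the largest lower values (right), with 1 point per array. In each line both Tg TAC points lie on one side of both WT TAC points, from 8.01 and 9.06 against 5.39 and 5.66 for ND5 to 5.86 and 5.89 against 7.08 and 6.94 for Jag2.

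Among the higher genes, *ND5* encodes a subunit of respiratory complex I on the mitochondrial genome. It was 5.39 and 5.66 in WT TAC and 8.01 and 9.06 in Tg TAC, a difference of 3.01 ± 0.38 SE or 8.03-fold. Both WT TAC values were near the lowest detected signals of those arrays (5.27 and 5.43). Without the library labelled WT TAC replicate 1 the difference was 2.87. Most other measured genes of the mitochondrial genome were lower. *COX2*, a subunit of cytochrome oxidase, was 14.60, 14.61, 14.04 and 14.04, lower by 0.57 on average in Tg TAC (-0.57 ± 0.12 SE). *ND6* was 6.56, 6.68, 5.80 and 5.69 (-0.88 ± 0.22 SE), and *ND4L* differed by -0.72 ± 0.20 SE. Of 8 measured mitochondrially encoded genes 3 were higher and 5 lower, and their median was -0.13. Without overlap, 2 (25%), *ND5* among them, were higher against a background of 21%, and 4 (50%) lower against 18.7%. *ND5* was read by 1 probe, and which transcript that probe reads was not checked.

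Among the higher genes, *Ncam1*, *Cdh16*, *Cdhr5* and *Slc9a3* encode cell surface proteins. *Ncam1*, an adhesion molecule of the immunoglobulin family, was 6.33 and 5.34 in WT TAC and 8.29 and 7.79 in Tg TAC (2.21 ± 0.39 SE). *Cdh16*, a cadherin best known from the kidney, was 5.68, 4.67, 7.57 and 8.45, the second largest difference of the 15 (2.83 ± 0.46 SE). *Cdhr5*, a protocadherin of brush borders, was not detected in WT TAC and was 6.42 and 5.95 in Tg TAC, at least 1.78-fold higher. *Slc9a3*, a sodium and hydrogen exchanger of kidney and gut, was 6.46 and 4.95 in WT TAC and 8.01 and 6.85 in Tg TAC. *Ncam1*, *Cdh16* and *Slc9a3* were detected only in replicate 1 of WT TAC, and *Ncam1* had 1 of its 4 probes above the detection filter. Without the library labelled WT TAC replicate 1 the WT TAC array that is left did not detect these 3 genes, so no value is given for that case. The difference of *Slc9a3* (1.73 ± 0.62 SE) was 0.97 without WT TAC replicate 2 and 1.15 without Tg TAC replicate 1. Over the adhesion and intercalated disc list, 19 of 27 measured members were higher and 8 lower with a median of 0.11, which turned to -0.02 with median scaling (0.10 relative to the median gene). Without 1 array the median ranged from -0.06 (without Tg TAC replicate 1) to 0.23 (without Tg TAC replicate 2). Of those members 7 (25.9%) were higher without overlap, near the background of 21%. Besides *Cdh16* and *Ncam1*, its leading members were *Pkp4*, a plaque protein of cell junctions (0.51 ± 0.14 SE), and *Gja5*, the connexin of atrial and conduction tissue (0.60 ± 0.20 SE). Other detected *Gja5* probes differed by 0.10, with overlapping groups, and by 0.35.

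*Serpina3n*, a secreted inhibitor of serine proteases that belongs to the acute phase, was 8.09 and 7.33 in WT TAC and 9.88 and 9.33 in Tg TAC, 3.72-fold higher (1.90 ± 0.33 SE). It was detected on all arrays and read by 1 probe, and its same-numbered differences of 1.79 and 2.00 were close. The difference was 2.28 without the library labelled WT TAC replicate 1. The complement gene *C4b* was 6.76 and 6.45 in WT TAC and 7.70 and 8.05 in Tg TAC (1.26 ± 0.24 SE). Neither gene passed the test. Of 24 measured acute phase and inflammation genes 11 were higher and 13 lower (median -0.15), and of 11 complement genes 7 were above WT TAC and 4 below, with a median of 0.12 that was -0.01 with median scaling (0.11 relative to the median gene). Of the complement genes 5 (45.5%) were higher without overlap against a background of 21%, and 0 lower against 18.7%. Their median was 0.14 to 0.21 when each array was left out in turn.

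The other higher genes had varied roles. *Rpap3*, a co-chaperone that helps to assemble RNA polymerase, was 6.76 and 7.10 in WT TAC and 8.04 and 8.34 in Tg TAC (1.26 ± 0.23 SE), but its second detected probe read 5.74, 6.53, 6.10 and 6.54, a difference of 0.19 with overlapping groups. *Cdk5r1*, an activator of the kinase Cdk5, was 6.07, 6.51, 7.27 and 7.87 (1.28 ± 0.30 SE). *Fryl*, a large protein related to furry of the fly, was 6.68, 7.19, 7.73 and 8.30 (1.08 ± 0.30 SE), while its 3 other detected probes differed by -0.04, 0.15 and 0.08. These 3 genes were detected on all 4 arrays. For each of them the library labelled WT TAC replicate 1 was the lowest, and without that library the differences were 1.09, 1.06 and 0.83. *Akr1c12*, an aldo-keto reductase, was 5.79, 4.96, 6.96 and 7.22, and *Lgi2*, a secreted leucine-rich repeat protein, was 6.44, 5.29, 7.65 and 7.86. *Fam205c* was 6.04, 4.88, 7.93 and 7.997 (2.499 ± 0.41 SE), and its second probe differed by 1.88. *Mlana*, a melanosome protein, was 5.56, 4.43, 6.84 and 6.97. *Akr1c12*, *Lgi2*, *Fam205c* and *Mlana* were detected only in replicate 1 of WT TAC. Their WT TAC replicate 2 values lay below the lowest detected signal of that array (5.43). *Nkx6-2*, a homeobox transcription factor of the nervous system, was not detected in WT TAC, was 6.39 and 6.64 in Tg TAC, and was at least 2.24-fold higher. *Ppp1r1c*, an inhibitor of protein phosphatase, was not detected in WT TAC and was 5.41 and 6.25 in Tg TAC. The value in Tg TAC replicate 1 was near the lowest detected signal of that array (5.34). By the group means *Ppp1r1c* was at least 1.39-fold higher by the same rule. Such a bound sets the mean of the bright group against the mean, per dim array, of the lowest detected signal or the gene's own signal, whichever is higher.

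Of the 15 lower genes 7 were detected on all 4 arrays, 5 on 1 Tg TAC array and 3 on none of them. *Calr* encodes calreticulin, a calcium-binding chaperone of the endoplasmic reticulum. It was 10.05 and 9.28 in WT TAC and 8.29 and 7.91 in Tg TAC, 2.97-fold lower (-1.57 ± 0.31 SE). Both Tg TAC values lay below both WT TAC values, by -1.76 and -1.38 in the same-numbered differences. Without the library labelled WT TAC replicate 1, which had the highest value, the difference was -1.19. The second *Calr* probe was not detected on any array. *Calr* is a known target of the unfolded protein response, which acts through the endoplasmic reticulum stress response element, so its promoter is shown to let the element be read beside the values. The sequence is that of RefSeq on GRCm38.p6, chr8:84846882-84847181 on the minus strand, from 250 bases before to 50 bases after the start, and the capitals mark the element, which here lies on the opposite strand and begins 162 bases before the start.
Calr: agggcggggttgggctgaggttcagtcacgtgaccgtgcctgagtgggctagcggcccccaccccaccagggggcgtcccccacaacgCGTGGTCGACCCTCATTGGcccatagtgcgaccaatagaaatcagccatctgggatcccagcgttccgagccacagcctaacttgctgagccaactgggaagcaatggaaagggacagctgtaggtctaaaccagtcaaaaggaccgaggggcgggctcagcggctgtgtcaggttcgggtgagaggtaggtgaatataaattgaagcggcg

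The element was searched as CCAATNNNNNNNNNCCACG on both strands. It was found in 39 of 32851 mouse promoters of this length (0.119%), and in 8 of the 19 promoters given for the 21 measured genes of the endoplasmic reticulum folding list. A match is a description of the letters and not of binding. The sites are set out so that the genes that carry the element can be compared, with the element in capitals on the gene's own strand and 5 bases on either side.
Calr: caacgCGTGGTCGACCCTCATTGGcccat
Hsp90b1, first site: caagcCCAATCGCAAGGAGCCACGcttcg
Hsp90b1, second site: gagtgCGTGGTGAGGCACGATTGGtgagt
Pdia6: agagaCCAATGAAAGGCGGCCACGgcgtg
Hspa5: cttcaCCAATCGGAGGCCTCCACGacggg
Syvn1: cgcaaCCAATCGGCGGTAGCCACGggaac
Creld2: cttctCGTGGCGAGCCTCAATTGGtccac
Dnajc3: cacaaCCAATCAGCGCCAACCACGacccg
Ero1b: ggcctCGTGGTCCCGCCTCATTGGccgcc

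The 8 genes with this element did not share one difference. After *Calr*, the chaperone gene *Hsp90b1* differed by -0.44 ± 0.16 SE and the disulfide isomerase gene *Pdia6* by -0.32 ± 0.21 SE. *Hspa5*, which encodes the chaperone BiP, differed by -0.10 ± 0.23 SE, *Creld2* by -0.10 ± 0.18 SE and the oxidase gene *Ero1b* by -0.13 ± 0.25 SE. *Dnajc3* was at 0.06 ± 0.21 SE. *Syvn1*, a ubiquitin ligase that clears misfolded proteins, was higher in both replicates (0.35 and 0.68, mean 0.52 ± 0.17 SE). Over the list, 11 of 21 measured members were higher and 10 lower, with a median of 0.01 that was -0.15 with median scaling (-0.03 relative to the median gene) and a range from -1.57 to 0.52. *Herpud1*, another gene of that response, differed by -0.58 ± 0.23 SE. None passed the threshold (adjusted p of at least 0.66 by limma).

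*Cd300lg* encodes a mucin-like receptor of capillary endothelium. It was 10.60 and 10.75 in WT TAC and 9.45 and 9.54 in Tg TAC, 2.27-fold lower, with the smallest unadjusted p of the 15 lower genes (-1.18 ± 0.16 SE, adjusted p = 0.66 by limma). Its replicates lay close together, and the difference was -1.25 without the library labelled WT TAC replicate 1. The second detected *Cd300lg* probe read 7.16, 7.53, 6.78 and 6.98, a smaller difference of -0.46, also without overlap. *Jag2*, a ligand of Notch receptors, was 7.08, 6.94, 5.86 and 5.89 (-1.13 ± 0.21 SE), and *Notch3*, the Notch receptor of vascular smooth muscle, was 9.15, 8.70, 8.22 and 8.22 (-0.70 ± 0.22 SE). Of 13 measured endothelial markers 11 were lower and 2 higher, with a median of -0.29 against 0.01 over all genes, and 4 (30.8%) were lower without overlap where the background was 18.7%. *Emcn*, the endothelial sialomucin, was 11.22, 11.15, 10.64 and 10.57. *Flt1*, a receptor for vascular endothelial growth factors, differed by -0.38 ± 0.15 SE, and *Pecam1*, a junction protein, by -0.51 ± 0.26 SE. Other detected *Pecam1* probes differed by -0.48 and -0.13, both with overlapping groups. *Vwf*, the von Willebrand factor, ran the other way (0.52 ± 0.27 SE). The summed linear level of the endothelial list was 29030 and 23383 in WT TAC and 25540 and 20799 in Tg TAC, so the groups overlapped. Without the library labelled WT TAC replicate 1 the median of the list was -0.02, without WT TAC replicate 2 it was -0.42, without Tg TAC replicate 1 -0.38 and without Tg TAC replicate 2 -0.14. Smooth muscle and pericyte markers pointed the same way, with 9 of 11 below WT TAC (median -0.31, from -0.35 to -0.14 without 1 array, the last without Tg TAC replicate 1), with summed levels of 18050 and 12517 in WT TAC and 14155 and 17158 in Tg TAC. In whole ventricle, fewer cells of a type and less RNA per cell cannot be told apart.

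*Cox4i2*, *Gsk3a*, *Dusp23* and *Ip6k2* encode metabolic and signalling enzymes. *Cox4i2*, the isoform of a cytochrome oxidase subunit known from lung and from hypoxia, was 8.44 and 7.77 in WT TAC and 7.05 and 6.29 in Tg TAC (-1.44 ± 0.36 SE). *Gsk3a*, a kinase that inhibits glycogen synthase, was 7.73 and 6.69 in WT TAC and 5.49 and 5.64 in Tg TAC, 3.13-fold lower (-1.65 ± 0.38 SE). The library labelled WT TAC replicate 1 was its highest, and without that library the difference was -1.13. *Gsk3b*, the closely related kinase, was 9.26, 9.28, 9.59 and 9.69 (0.37 ± 0.16 SE). Over the insulin, Akt and Gsk3 signalling list, 12 of 27 measured members were higher and 15 lower, with a median of -0.04. *Dusp23*, a protein phosphatase, was 9.05, 9.86, 7.91 and 8.37 on the probe used, but its second detected probe read 7.27, 8.83, 7.77 and 7.97, a difference of -0.18 with overlapping groups. *Ip6k2*, an inositol phosphate kinase, was 7.57, 6.39, 5.74 and 4.75. *Ip6k2* was not detected in 1 of the Tg TAC arrays. Leaving out the library labelled WT TAC replicate 1, the differences were -1.10 for *Cox4i2*, -1.72 for *Dusp23* and -1.15 for *Ip6k2*.

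The remaining lower genes, apart from *Pisd-ps3*, read between 4.56 and 7.40. *Gal3st3* and *Chst2*, both sulfotransferases of sugar chains, were 6.74, 6.91, 4.79 and 5.66 and 6.21, 5.62, 4.89 and 4.56. *Mospd3* was 6.82, 6.72, 5.65 and 5.40, and *Pym1*, a partner of the exon junction complex, was 6.56, 6.21, 5.39 and 4.93. *Rhbdl3*, a protein of the rhomboid protease family, was 6.28 and 7.40 in WT TAC and was not detected in Tg TAC. By the group means it was at least 2.76-fold lower there, and the same bound was 1.498 for *Adam20* and 1.45 for *Chst2*. *Pisd-ps3*, a pseudogene of phosphatidylserine decarboxylase, was 9.91 and 9.34 in WT TAC and 8.82 and 5.39 in Tg TAC. In Tg TAC replicate 2 it was not detected, and its value lay below the lowest detected signal of that array (5.41). The *Pisd-ps3* difference of -2.52 ± 1.08 SE came mainly from that array (-0.80 without Tg TAC replicate 2 and -4.24 without Tg TAC replicate 1). This pseudogene may share sequence with its parent gene.

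*Nlrc5*, the transactivator of MHC class I genes, was 6.78 and 6.91 in WT TAC and 5.70 and 5.67 in Tg TAC (-1.16 ± 0.22 SE, adjusted p = 0.66 by limma). Interferon response genes were mostly lower, with 21 of 26 measured members lower and 5 higher, a median of -0.29, and same-numbered medians of -0.27 and -0.23. Without overlap, 11 (42.3%) were lower against a background of 18.7%, and 2 (7.69%) higher against 21%. *Gbp3*, an interferon-induced guanylate-binding protein, was 9.50, 9.34, 8.92 and 8.66, and *Irf1*, an interferon regulatory transcription factor, was 10.48, 10.51, 9.96 and 10.08. *Rsad2*, an antiviral protein, was 10.22, 10.01, 9.79 and 9.40. *Ifi27* was higher, by 0.89. Genes of class I presentation, chosen after their values were seen, were *B2m* (-0.44), *Tap1* (-0.50), *H2-D1* (-0.39) and *Psmb8* (-0.34), while *H2-K1* was at 0.39. None of these genes passed the test. The median of the list was -0.15 without the library labelled WT TAC replicate 1, but -0.43 without WT TAC replicate 2, and -0.37 and -0.10 without Tg TAC replicates 1 and 2. With median scaling it was -0.42, or -0.30 relative to the median gene. Macrophage markers were measured beside it, with 11 of 17 lower (median -0.10) and summed levels of 23557 and 19958 in WT TAC and 22367 and 17598 in Tg TAC, and their part in the result was not tested.

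Among cardiac transcription factors 14 of 23 measured members were lower, and the median was -0.20. Of the members 9 (39.1%) were lower without overlap against a background of 18.7%, and 2 (8.7%) higher against 21%. *Nkx2-5*, a homeobox factor of heart muscle identity, was 10.02 and 9.79 in WT TAC and 9.46 and 9.25 in Tg TAC (-0.55 ± 0.19 SE). *Hand2*, a basic helix-loop-helix factor of the right ventricle and outflow tract in development, was 8.95, 7.43, 6.85 and 6.88, and its same-numbered differences were -2.10 and -0.55. *Tcf15*, a factor of cardiac endothelium, was 8.47, 8.78, 7.76 and 7.69 (-0.90 ± 0.20 SE). *Hdac4*, a histone deacetylase that holds back the growth program, differed by -0.57 ± 0.22 SE. Markers of heart muscle cells, the cells that carry the transgene, were above the filter for 11 of 12 genes, with 5 higher and 6 lower, and their summed levels between 249930 and 275360 overlapped between the groups. The median of the transcription factor list was -0.18 without the library labelled WT TAC replicate 1 but -0.07 without Tg TAC replicate 1.

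Nuclear genes of oxidative phosphorylation were 33 of 52 lower with a median of -0.02. Without overlap, 15 (28.8%) were lower against a background of 18.7%, and 4 (7.69%) higher against 21%. *Atp5c1*, a subunit of ATP synthase, was 14.40 and 14.36 in WT TAC and 13.55 and 13.60 in Tg TAC (-0.81 ± 0.12 SE), with little spread within either group. *Cox6c* was 14.11, 14.32, 13.62 and 13.52, and *Sdhb*, a subunit of complex II, was 13.38, 13.50, 12.92 and 13.07. With median scaling 46 of 52 were lower and the median was -0.20, or -0.08 relative to the median gene. It was -0.10 without the library labelled WT TAC replicate 1 or -0.12 without Tg TAC replicate 2, and turned to 0.02 without WT TAC replicate 2 and to 0.05 without Tg TAC replicate 1. Fatty acid oxidation genes were 20 of 31 lower (median -0.14, with -0.02 and -0.25 in replicates 1 and 2), and that median turned as well, to 0.16 without WT TAC replicate 2 and 0.08 without Tg TAC replicate 1, and was -0.44 without the library labelled WT TAC replicate 1 or -0.32 without Tg TAC replicate 2. *Acadl*, the long-chain acyl-CoA dehydrogenase, was 11.19, 10.88, 10.50 and 10.10 on the probe used, but another of its detected probes was higher in Tg TAC by 0.95. Glycolysis genes were 15 of 17 higher (median 0.15). Of them 6 (35.3%) were higher without overlap against a background of 21%, and 0 lower against 18.7%. With median scaling 7 of 17 were higher (median -0.04, or 0.08 relative to the median gene), where 34.7% of all genes were higher. Without 1 array the glycolysis median was 0.10 to 0.27, highest without Tg TAC replicate 1 and lowest without the library labelled WT TAC replicate 1. *Slc2a1*, the basal glucose transporter, was 8.31, 8.30, 8.80 and 8.84 (0.52 ± 0.17 SE), and *Pfkl*, a phosphofructokinase, was 10.53, 10.88, 11.08 and 11.19 (0.43 ± 0.19 SE).

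Genes of protein turnover pointed in several directions. Proteasome genes were 17 of 29 higher, with a median of 0.10 that became -0.10 with median scaling (0.02 relative to the median gene). Of these genes 13 (44.8%) were higher without overlap against a background of 21%, and 5 (17.2%) lower against 18.7%. The median was 0.03 without Tg TAC replicate 2. *Psmd13*, a regulatory subunit, was 11.26 and 11.30 in WT TAC and 11.84 and 11.78 in Tg TAC (0.53 ± 0.14 SE). *Psmc4*, an ATPase subunit, was 11.03, 11.01, 11.55 and 11.53 (0.52 ± 0.14 SE). Cytosolic ribosomal protein genes were 24 of 33 lower (median -0.09). Without overlap, 13 (39.4%) were lower against a background of 18.7%, and 5 (15.2%) higher against 21%. *Rplp2* was 14.14, 13.90, 13.26 and 13.33. The ribosomal median was 0.00 without the library labelled WT TAC replicate 1, while it was -0.18 without WT TAC replicate 2. In the autophagy list, *Gabarap*, which joins the autophagosome membrane, differed by -0.66 ± 0.14 SE, while *Becn1*, which starts autophagosome formation, differed by 0.59 ± 0.20 SE and the muscle ubiquitin ligase gene *Trim54* by 0.56 ± 0.16 SE. Integrated stress response genes were 11 of 17 lower (median -0.27), but without the library labelled WT TAC replicate 1 the median was 0.02, without Tg TAC replicate 2 it was -0.05, without Tg TAC replicate 1 -0.52 and without WT TAC replicate 2 -0.40. Leading members were *Chac1*, an enzyme that degrades glutathione, at 9.07, 8.87, 8.36 and 7.94, and the transcription factor gene *Atf5* at 9.52, 9.66, 10.07 and 10.19.

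**Figure D4:**
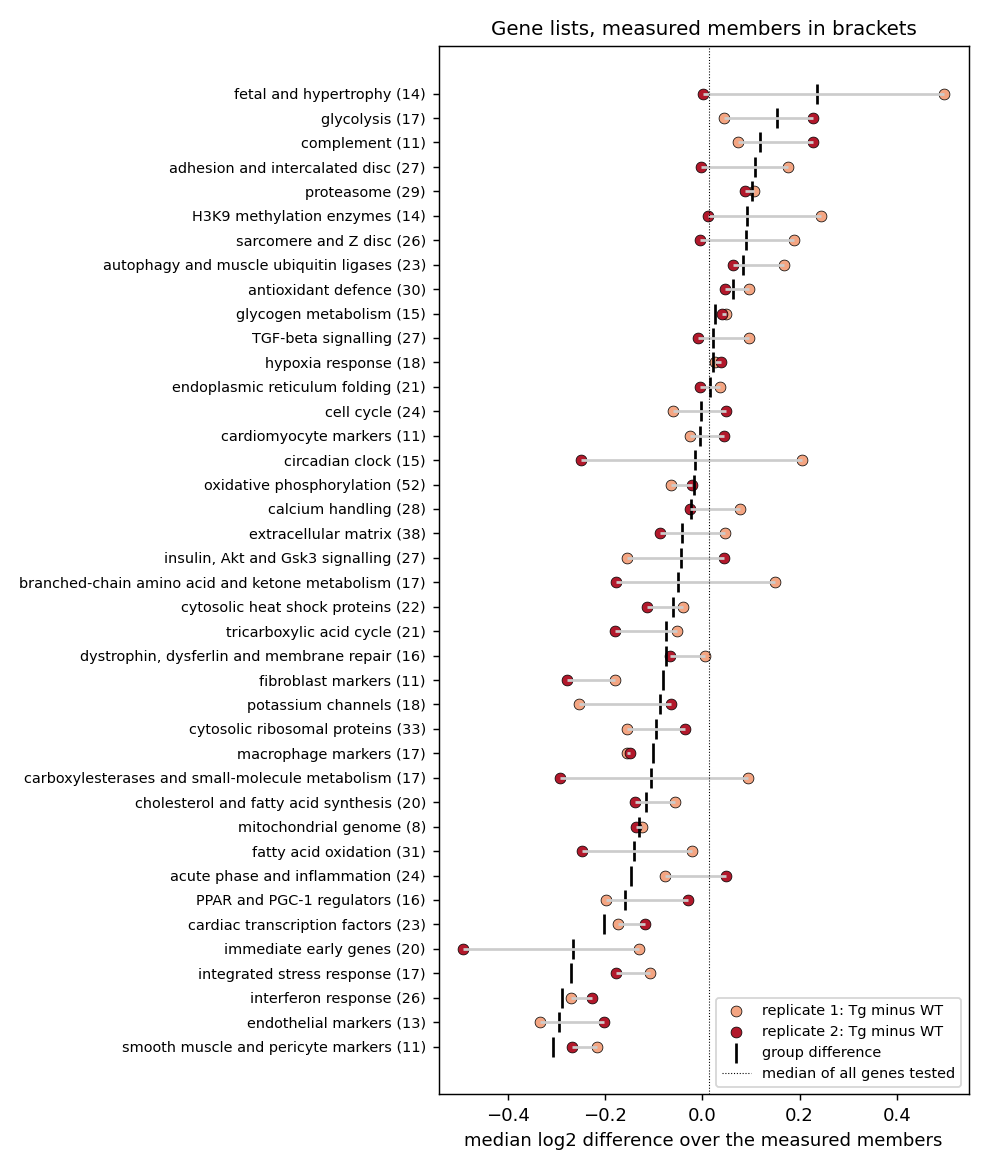
Median log2 difference (x axis) over the measured members of each gene list with at least 8 measured members (number in brackets), for replicate 1, replicate 2 and the groups. The interferon list lies at -0.27 and -0.23 in the 2 replicates, and the fetal and hypertrophy list at 0.50 and 0.00.

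Genes with opposite signs in the 2 replicates were also measured, and the group means hide them. *Egr1*, an immediate early transcription factor, was 10.07 and 10.67 in WT TAC and 12.31 and 9.63 in Tg TAC, so it was higher in Tg by 2.24 in replicate 1 and lower in replicate 2 (-1.04). *Dbp*, an output gene of the circadian clock, was 8.73, 12.16, 10.84 and 11.38, with differences of 2.12 and -0.78. The library labelled WT TAC replicate 1 was the low one for *Dbp*. The insulin receptor substrate gene *Irs2* was 7.995, 5.67, 6.70 and 6.83 and went the other way (-1.29 and 1.16). *Pigh*, an enzyme of glycolipid anchor synthesis, was 6.62, 6.52, 5.50 and 8.20. The 8 genes of each direction had adjusted p of at least 0.88 by limma. Those higher in replicate 1 and lower in replicate 2 also included *Igsf1* (1.47 and -0.91) and *Igfbp3*, a carrier of insulin-like growth factors (1.03 and -0.95), and the opposite set included *Erdr1* (-1.25 and 0.83) and *Olfml2b* (-0.62 and 1.20). Over the immediate early list, 14 of 20 measured members were lower (median -0.27), but the median was 0.08 without the library labelled WT TAC replicate 1, 0.25 without Tg TAC replicate 2, -0.61 without WT TAC replicate 2 and -0.88 without Tg TAC replicate 1. The circadian list had a median of 0.21 in replicate 1 and -0.25 in replicate 2. Neutrophil markers were measured for 4 of 13 genes, and *S100a8* was 9.20, 7.04, 5.96 and 7.38, so its difference of -3.24 in replicate 1 had no counterpart in replicate 2 (0.35). Summed over these markers, the level was 950 for the library labelled WT TAC replicate 1 but between 232 and 354 for the other 3 libraries. Of 10 T cell markers 1 was measured, and *Cd3e* was not.

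*Ces1d*, a carboxylesterase that hydrolyses lipids, was 10.31 and 12.67 in WT TAC and 7.77 and 10.77 in Tg TAC. Its groups overlapped because both replicate 2 libraries were high, yet the same-numbered differences were -2.54 and -1.90 (-2.22 ± 1.18 SE, adjusted p = 0.69 by limma). Fetal, hypertrophy and matrix genes were set apart by replicate number more than by genotype in several cases. *Nppa*, the atrial natriuretic peptide, was 15.22 and 15.28 in the replicate 1 libraries of WT and Tg and 13.08 and 12.46 in the replicate 2 libraries. *Myh7*, the slow myosin, was 8.35, 6.97, 10.60 and 7.01, and *Timp1*, an inhibitor of matrix proteases, was 9.46, 6.42, 10.17 and 7.94. Of 14 measured fetal and hypertrophy genes 10 were above WT TAC and 4 below, with medians of 0.50 in replicate 1 and 0.00 in replicate 2. Of 38 matrix genes 17 were higher and 21 lower (median -0.04). Their direction turned with 1 library, to 0.52 without the library labelled WT TAC replicate 1, -0.58 without WT TAC replicate 2, -0.69 without Tg TAC replicate 1 and 0.59 without Tg TAC replicate 2. For the fetal list the same medians were 0.71, -0.13, -0.45 and 0.98.

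Enzymes that write or erase H3K9 methylation, the mark KDM3A removes, were listed together with proteins that bind it, and 14 of 24 genes were measured. Apart from *Kdm3a*, the leading member was *Kdm4c*, another H3K9 demethylase, at 6.03, 6.31, 6.70 and 6.71 (0.54 ± 0.23 SE, adjusted p = 0.68 by limma). *Cbx3*, a protein that binds methylated H3K9, differed by 0.37 ± 0.17 SE on the probe used and by -0.25 on its other detected probe. *Phf2*, a demethylase, differed by -0.44 ± 0.23 SE. Of the 14 members 9 were higher and 5 lower, with a median of 0.09 that was -0.05 with median scaling (0.07 relative to the median gene). Hypoxia response genes, among which *Kdm3a* itself is counted, had 10 of 18 higher (median 0.02, and -0.11 with median scaling, or 0.01 relative to the median gene). Across all 49 lists, 0 members were called, and 14 lists kept 1 direction of their median when each array was left out in turn. Among these 14 were the T cell list with 1 measured member and the neutrophil list with 4. The complement, glycolysis, proteasome and sarcomere lists, which stayed higher, had medians of -0.01, -0.04, -0.10 and -0.01 with median scaling. Relative to the median gene those values were 0.11, 0.08, 0.02 and 0.11.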

How the data were processed

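Total RNA of 1 left ventricle per array was hybridised to Illumina bead arrays. The authors summarised beads into 1 intensity per probe without normalization and deposited these intensities with a detection p-value per probe, and the submitters' processing notes name GenomeStudio 2011.1. A second deposited table held intensities after quantile normalization by the authors, since its sorted columns lay within 0.138% of the mean sorted raw columns, and it served as an alternative. The platform annotation gave 34885 of 45281 probes 1 gene symbol, 18 several and 10378 none, and 34807 probes matched RefSeq genes.

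The limma package (version 3.58.1, R 4.3.3) corrected the background by normexp, taking the negative control level from the detection p-values and adding an offset of 16. All 6 arrays were then quantile normalized on the log2 scale. Differences are therefore compressed for dim genes. Probes detected (p below 0.01) on at least 2 of the 4 TAC arrays were kept, 16462 in all, and the probe with the highest mean stood for each of 9389 genes. Tg TAC was fitted against WT TAC by lmFit and eBayes (trend on intensity) over the 4 TAC arrays. P-values were adjusted over all genes by Benjamini-Hochberg with a threshold of 0.05, and the fit was tested on simulated data. The number of arrays limits the precision.

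Described genes were the 15 higher and 15 lower with the largest smaller same-numbered difference among named genes without overlap that were detected on both arrays of the brighter group. The 8 genes with the largest opposite differences in each direction, up to 4 members with the smallest p of each of 49 gene lists, and genes the study names were added. Predicted genes and unnamed clones were not ranked. The comparison, the lists and the rule were chosen with earlier results of these data known. Promoter sequences came from a RefSeq table of GRCm38.p6. Alternatives were median scaling, the second table, the TAC arrays alone, all 6 arrays in 1 fit, other detection filters, the mean of probes, an offset of 50, the methods' t-test, a replicate block and leaving out each array.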

Additional observations from a re-analysis of the deposited data

How the results depend on the processing

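The group difference had 2 residual degrees of freedom, dim probes are compressed by the offset, and a fit without 1 array assumes that the lone array varies like the other group. Of the 30 ranked genes 12 were detected on all 4 arrays, and their choice largely fixes their direction in fits without 1 array. The count of genes without overlap became 998 higher and 2557 lower with median scaling, and 3636 higher and 3359 lower with no detection filter. At an unadjusted p below 0.05 by limma there were 99 higher and 536 lower genes with median scaling and 587 higher and 590 lower with no filter. Median scaling gave 47 genes over 2-fold higher and 111 lower, with 15 higher and 43 lower in both replicates. The second table gave 11 higher and 10 lower over 2-fold, with 5 and 4 in both replicates. Genes detected on all 4 arrays gave 41 higher and 42 lower over 2-fold, with 10 higher and 14 lower in both replicates. An offset of 50 gave 35 and 25 over 2-fold, with 9 and 7 in both replicates. The methods' t-test gave 354 higher and 344 lower genes before adjustment and 0 after Benjamini-Hochberg. The causes were not tested.

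Each array was also left out in turn, which leaves 1 array in 1 of the groups. Without the library labelled WT TAC replicate 1 the *Kdm3a* difference was 7.89. That library was singled out by its value on the same *Kdm3a* probe, so its removal cannot test *Kdm3a* and no call is given. The same holds for 3110040M04Rik, where WT TAC replicate 1 also lay nearer to Tg TAC. Unadjusted counts ranged from 157 to 279 higher and 180 to 380 lower, with the lowest values without Tg TAC replicate 2. Genes over 2-fold ranged from 71 to 183 (183 without the library labelled WT TAC replicate 1) in the higher direction, with 107 to 177 lower (177 without WT TAC replicate 2). In fits without 1 array the difference of *Nppb* ranged from -1.23 to 1.26 (also -0.19 with median scaling), of *Nppa* from -1.69 to 1.13, of *Timp1* from -0.40 to 2.64, of *Fhl1* from -0.021 to 1.24 and of *Myh7* from -0.65 to 2.93, so the direction of each turned. Of 636 list medians recomputed, 450 moved by less than the spread between replicates and 186 by more.

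With the replicate number as a block limma called 2 genes higher, *ND5* (3.01 ± 0.24 SE) and *Serpina3n* (1.90 ± 0.15 SE), and 1 lower, *Ces1d* (-2.22 ± 0.17 SE), each with an adjusted p of 0.039, and 933 higher and 977 lower genes had an unadjusted p below 0.05. Deviations from the group means correlated at 0.55 between same-numbered libraries. The labels do not say that a number marks a shared batch, and with 2 pairs the pairing is not established.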
